A study of Homo sapiens with 6 samples.

Results

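The genes described here build or bind the extracellular matrix: chains of collagens and laminins, the linkers of basement membranes, syndecans, glypicans and other proteoglycans, fibrillins, fibronectin, and the enzymes that hydroxylate and crosslink collagen. They were chosen by symbol from the deposited table (collagen chains, LAMA, LAMB, LAMC, SDC, GPC, PLOD, P4HA, LOX, LOXL, FBN and NID genes, with FN1, HSPG2, AGRN, SPARC, BGN, DCN, VCAN and CCDC80). Of 14200 genes in the table, 62 carried such a symbol, and the 56 whose mean over the 6 libraries reached 1 CPM (reads of a gene scaled to the size of its library) are the matrix genes below. Those below that level included COL4A1, COL10A1, COL11A2, COL22A1 and COL24A1, with means of 0.164 to 1.02 CPM after knockdown and 0.394 to 0.706 CPM in controls. Just above it stood GPC1, with 1.55 CPM after knockdown and 1.78 CPM in controls, and below it COL4A1, with 1.02 CPM after knockdown and 0.527 CPM in controls. COL4A3BP, a ceramide transfer protein, and COL6A4P1, a pseudogene, have symbols that begin alike and were left out. A further 28 genes of these families had no values among the genes read here, COL4A2, COL5A1, COL6A2, COL6A3 and COL9A1 among them.

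The libraries were made from Huh7 cells, a line grown from a human hepatocellular carcinoma that keeps many features of hepatocytes. In 3 libraries SETD5, the gene of a chromatin protein with a SET domain, had been silenced with siRNA delivered by the RNAiMAX lipid reagent, and 3 libraries were controls, whose own transfection is not described in the labels. Cells of both groups grew in DMEM with fetal bovine serum, and mRNA captured on poly-T beads was made into stranded libraries. Nothing in the labels ties the libraries to separate cultures, so p-values measure how much these libraries vary, and that may be technical variation. Whether the counting used strand is not stated in the sources, so reads of a gene and of an antisense partner cannot be told apart. Recovered reads were 15919552 to 16609918 in the knockdown libraries and 14038447 to 17095417 in the controls. The silencing was partial: SETD5 stood at 136, 140.4 and 138 CPM in knockdown libraries 1 to 3 and 212, 209.6 and 202 CPM in controls 1 to 3, and the groups did not overlap. Its mean after knockdown was 0.664 times that of the control (log2 fold change -0.59, SE 0.032, adjusted p = 1.15e-17 by limma). The exact permutation test (two-sided, 3 against 3 libraries) gave p = 0.1 and can go no lower in this design. These are bulk RNA values, in which fewer cells expressing a gene and less RNA per cell cannot be told apart.

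A collagen molecule is a helix of alpha chains that are hydroxylated on proline and lysine in the endoplasmic reticulum, secreted, and crosslinked outside the cell by lysyl oxidases. Basement membranes are sheets in which laminin and type IV collagen networks are tied together by nidogen, perlecan and agrin. Syndecans and glypicans hold heparan sulfate chains at the cell surface, where these bind growth factors and matrix proteins. In liver most fibrillar collagen is made by stellate cells, while hepatocytes are a main source of plasma fibronectin, and hepatocellular carcinomas commonly make the glypican GPC3.

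Of the 56 matrix genes, 22 were higher and 19 lower after knockdown at a limma adjusted p under 0.05, and 15 did not pass. The same fit called 52.1% of all 12865 tested genes, 25.7% higher and 26.5% lower, against 73.2% of the matrix genes. A change of at least 0.5 on the log2(CPM + 1) scale was called for 23 matrix genes (41.1%), where 9.44% of all tested genes had such a call. A change of at least 1 on that scale was called for 6 matrix genes (10.7%), and for 1.33% of all tested genes: CCDC80, VCAN, COL14A1, COL1A2 and COL4A6 were higher and SDC4 was lower. The values of the groups did not overlap in 41 of the 56, and in 57.3% of all tested genes. Levels bear on such counts, and the median matrix gene had a mean of 43.7 CPM, against 29.4 CPM for the median tested gene. The matrix genes as a set had no common direction, with a median log2 fold change of -0.032 against -0.0012 over all tested genes. Log2 fold changes were taken of CPM + 1 throughout and are thus too small for genes at low levels, while ratios were taken of mean CPM, so that a few low genes changed by more than 2 times in CPM and by less than 1 on the log2 scale.

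**Figure D1:**
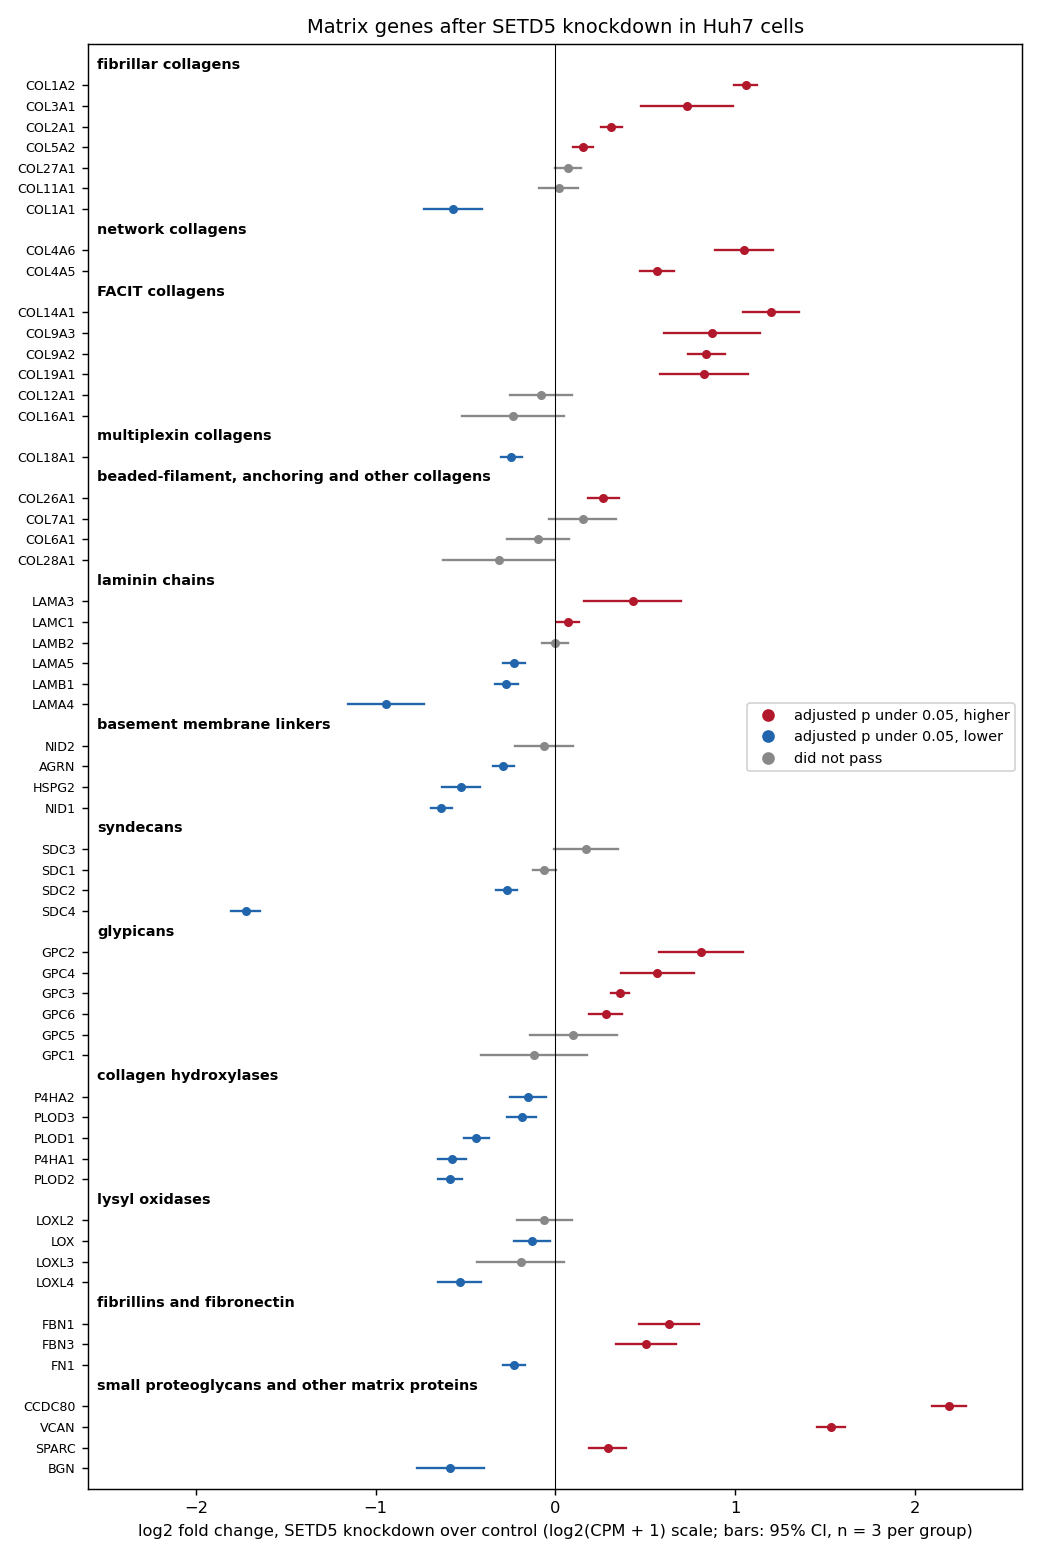
Log2 fold change of each of the 56 matrix genes, SETD5 knockdown over control, with 95% confidence intervals from limma (n = 3 libraries per group), grouped by role. CCDC80 and SDC4 lie at the extremes, the 4 called glypicans stand right of 0, and the 5 collagen hydroxylases stand left of it.

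**Figure D2:**
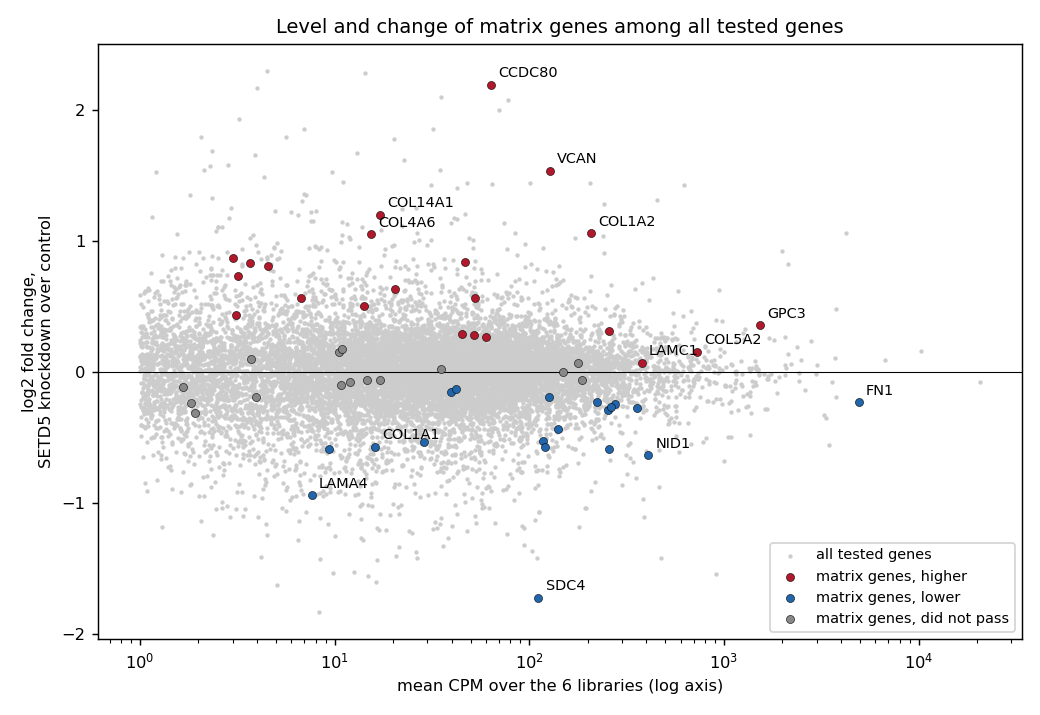
Mean CPM over the 6 libraries (log axis) against log2 fold change, SETD5 knockdown over control, for all 12865 tested genes in grey and the 56 matrix genes in colour. CCDC80, VCAN and COL1A2 lie above most genes of their level and SDC4 far below.

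Among fibrillar collagens the chains of type I collagen moved in opposite directions. COL1A2, the alpha-2 chain, stood at 277, 289 and 279.7 CPM in knockdown libraries 1 to 3 and 137, 133 and 134 CPM in controls 1 to 3. Every knockdown library lay above every control, at 2.09 times the control mean (log2 fold change 1.06, SE 0.031, adjusted p = 9.39e-26). COL1A1, the alpha-1 chain, which supplies most chains of the usual type I molecule, stood at 12.5, 14.5 and 11.5 CPM in knockdown libraries 1 to 3 and 20.4, 18.0 and 20.1 CPM in controls 1 to 3. Here every knockdown library lay below every control, at 0.659 times the control mean (log2 fold change -0.57, SE 0.080, adjusted p = 2.11e-07). The ratio of COL1A2 to COL1A1 per kilobase of transcript was 27.6, 24.7 and 30.1 in knockdown libraries 1 to 3 and 8.39, 9.16 and 8.25 in controls 1 to 3. Its mean was 27.5 ± 2.73 after knockdown and 8.60 ± 0.491 in controls (SD, n = 3 each), and the exact permutation test again gave p = 0.1. The alpha-2 message thus outnumbered the alpha-1 message per length in all 6 libraries.

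COL5A2, a chain of the fibril-nucleating type V collagen, was the most abundant in CPM of the 20 collagen chains tested. Its levels were 758, 802 and 747 CPM in knockdown libraries 1 to 3 and 708, 676 and 688 CPM in controls 1 to 3. It rose slightly, to 1.11 times the control (log2 fold change 0.15, SE 0.028, adjusted p = 1.51e-05), with no overlap. COL2A1, the chain of cartilage collagen type II, rose to 1.24 times, with 283 ± 4.55 CPM after knockdown and 228 ± 4.30 CPM in controls (SD, n = 3 each). COL3A1, the chain of type III collagen, rose to 1.97 times at a low level, 4.25 ± 0.584 CPM after knockdown and 2.15 ± 0.116 CPM in controls. COL11A1 and COL27A1, further fibril-forming chains, did not pass, with 95% intervals of -0.088 to 0.13 and -0.00076 to 0.14 on the log2 scale. COL27A1 passed without knockdown replicate 2 (adjusted p = 0.0249), without control replicate 1 (0.0235) and with the replicate number as a block (0.043). COL3A1 and COL5A2 are neighbours on chromosome 2, and both rose. COL1A1, COL1A2 and COL3A1 are also markers of stellate cells and fibroblasts, and of the other such markers RELN stood at 2.70 times the control and PDGFRB at 0.722 times.

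The chains of basement membrane collagen IV that were measured are a head-to-head gene pair on the X chromosome, COL4A5 and COL4A6. COL4A6 stood at 19.3, 21.7 and 22.3 CPM in knockdown libraries 1 to 3 and 9.08, 10.4 and 9.43 CPM in controls 1 to 3. All knockdown values lay above the controls, at 2.18 times their mean (log2 fold change 1.05, SE 0.080, adjusted p = 1.31e-13). COL4A5 stood at 61.4, 65.5 and 62.1 CPM in knockdown libraries 1 to 3 and 39.8, 43.7 and 43.4 CPM in controls 1 to 3, again without overlap, and at 1.49 times the control mean (log2 fold change 0.56, SE 0.047, adjusted p = 1.55e-12). COL4A1, a chain of the widespread form of type IV collagen, was below the level tested, at 1.02 ± 0.193 CPM after knockdown and 0.527 ± 0.0990 CPM in controls (SD, n = 3 each).

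Since the pair moved together, the promoters are shown, 250 bases before to 50 after each start, from RefSeq (GRCh38.p14). COL4A5 reads along the plus strand (chrX:108439588-108439887) and COL4A6 along the minus strand (chrX:108439409-108439708). Their starts lie 380 bases apart, and the windows share 121 bases. Capitals mark CCAAT on either strand.
COL4A5: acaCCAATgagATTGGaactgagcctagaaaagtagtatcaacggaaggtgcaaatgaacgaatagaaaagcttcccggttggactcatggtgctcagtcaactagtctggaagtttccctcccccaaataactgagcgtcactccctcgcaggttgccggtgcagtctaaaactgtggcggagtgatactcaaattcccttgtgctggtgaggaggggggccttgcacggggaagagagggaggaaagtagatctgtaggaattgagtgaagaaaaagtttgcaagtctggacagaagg
COL4A6: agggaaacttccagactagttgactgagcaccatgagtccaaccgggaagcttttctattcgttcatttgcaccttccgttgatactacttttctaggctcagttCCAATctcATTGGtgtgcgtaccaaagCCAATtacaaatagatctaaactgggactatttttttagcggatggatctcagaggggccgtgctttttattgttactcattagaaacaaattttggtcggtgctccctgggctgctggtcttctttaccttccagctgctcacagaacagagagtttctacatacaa
The pair of CCAAT boxes facing each other lies in the shared stretch and appears in both windows. CCAAT was found in 11 of 44 matrix gene promoters in the table (25.0%), against 35.7% of all 27305 promoters in it and 36.8% of those of tested genes. A match is a description of the letters and not of a site in use.

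Collagens that sit on the surface of fibrils (the FACIT group) rose in 4 of 6 members (66.7%) and fell in none. The shares of all tested genes were 25.7% higher and 26.5% lower. COL14A1, found on type I fibrils, stood at 22.6, 23.9 and 26.3 CPM in knockdown libraries 1 to 3 and 9.54, 10.2 and 10.1 CPM in controls 1 to 3. The groups were far apart, at 2.43 times the control mean (log2 fold change 1.20, SE 0.076, adjusted p = 8.06e-16). COL9A2, a chain of collagen IX that covers type II fibrils, stood at 59.9, 58.2 and 63.6 CPM in knockdown libraries 1 to 3 and 35.0, 31.1 and 34.2 CPM in controls 1 to 3. It rose to 1.81 times the control (log2 fold change 0.84, SE 0.051, adjusted p = 2.4e-16). COL9A3, another chain of collagen IX, had 4.18 ± 0.679 CPM after knockdown and 1.82 ± 0.249 CPM in controls, and COL19A1 had 4.98 ± 0.233 CPM after knockdown and 2.37 ± 0.239 CPM in controls (SD, n = 3 each). Both rose, with log2 changes of 0.87 and 0.83, from few reads. COL12A1 and COL16A1 did not pass, with intervals of -0.25 to 0.10 and -0.52 to 0.048. The COL16A1 values did not overlap between groups, and without the mean-variance trend it passed (adjusted p = 0.0449).

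Other collagens changed little. COL18A1, a basement membrane collagen that carries heparan sulfate and holds endostatin, was the abundant member, at 253, 253 and 251 CPM in knockdown libraries 1 to 3 and 298, 291 and 308 CPM in controls 1 to 3. It was lower in every knockdown library, at 0.843 times the control (log2 fold change -0.25, SE 0.029, adjusted p = 5.84e-09). COL26A1 rose to 1.21 times, with 65.9 ± 0.826 CPM after knockdown and 54.6 ± 0.806 CPM in controls (SD, n = 3 each). COL6A1 of beaded filaments, COL7A1 of anchoring fibrils and COL28A1 did not pass, with log2 changes of -0.10, 0.15 and -0.32. COL7A1 passed without knockdown replicate 2 (adjusted p = 0.0198) and COL28A1 without control replicate 2 (0.0322). Over the 20 collagen chains together, 11 rose (55.0%), 2 fell (10.0%) and 7 did not pass, with a median log2 fold change of 0.21. Of all tested genes, 25.7% rose and 26.5% fell. The 2 that fell were COL1A1 and COL18A1.

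**Figure D3:**
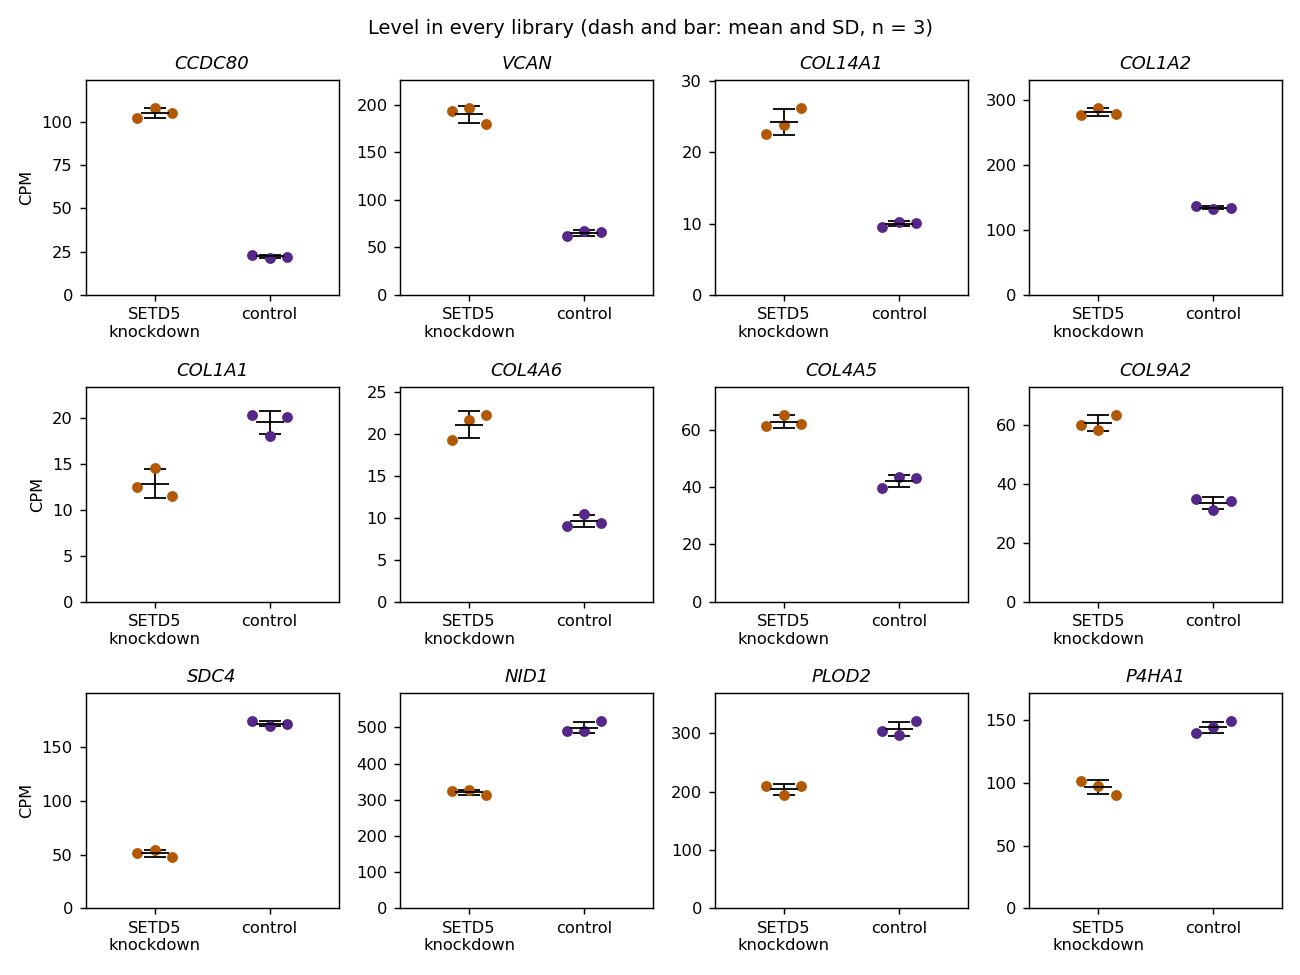
CPM of 12 matrix genes in each library, with SETD5 knockdown left of control; dashes and bars give mean and SD (n = 3). In each panel the 2 groups are separate, with COL1A2 higher and COL1A1 lower after knockdown.

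The enzymes that hydroxylate collagen went the other way from most collagen chains: all 5 measured members fell, where 26.5% of all tested genes fell. PLOD2, the lysyl hydroxylase that acts on telopeptides, stood at 210.2, 194 and 209 CPM in knockdown libraries 1 to 3 and 305, 296 and 320.4 CPM in controls 1 to 3. Its knockdown values were all below the controls, at 0.665 times their mean (log2 fold change -0.59, SE 0.033, adjusted p = 3.12e-17). P4HA1, a catalytic subunit of prolyl 4-hydroxylase, stood at 101, 97.4 and 90.4 CPM in knockdown libraries 1 to 3 and 139.9, 144 and 149 CPM in controls 1 to 3, with no overlap, at 0.669 times the control mean (log2 fold change -0.58, SE 0.038, adjusted p = 3.25e-15). PLOD1, which acts on the collagen helix, fell to 0.736 times the control, with 119.8 ± 2.28 CPM after knockdown and 163 ± 5.82 CPM in controls (SD, n = 3 each). The falls of PLOD3, a lysyl hydroxylase that also glycosylates, and of P4HA2, the other catalytic subunit, were small, to 0.875 and 0.898 times. The call of P4HA2 ended without control replicate 1 (adjusted p = 0.0642).

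P4HA1 and PLOD2 are known targets of the hypoxia-inducible factors, whose binding site has ACGTG or GCGTG as its core, so their promoters are shown with these letters in capitals on either strand (RefSeq, GRCh38.p14, both genes on the minus strand, chr10:73096817-73097116 and chr3:146161135-146161434).
P4HA1: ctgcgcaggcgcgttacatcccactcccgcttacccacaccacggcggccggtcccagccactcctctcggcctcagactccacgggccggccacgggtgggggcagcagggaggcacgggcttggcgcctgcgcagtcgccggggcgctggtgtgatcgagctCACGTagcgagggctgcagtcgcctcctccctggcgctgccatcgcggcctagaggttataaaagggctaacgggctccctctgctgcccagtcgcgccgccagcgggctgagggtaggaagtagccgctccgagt
PLOD2: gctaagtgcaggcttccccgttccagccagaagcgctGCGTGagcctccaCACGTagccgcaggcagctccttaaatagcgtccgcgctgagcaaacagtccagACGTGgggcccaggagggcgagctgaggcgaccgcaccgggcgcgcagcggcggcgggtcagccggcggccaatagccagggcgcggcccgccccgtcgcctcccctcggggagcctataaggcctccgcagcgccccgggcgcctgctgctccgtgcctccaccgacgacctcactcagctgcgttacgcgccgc
P4HA1 holds a single ACGTG and PLOD2 holds 2, with a GCGTG beside them. These matches describe letters and not sites in use. Whether the hypoxia-inducible factors have a part in the falls of P4HA1 and PLOD2 was not tested. ACGTG was found in 6 of 44 matrix gene promoters (13.6%) and GCGTG in 14 (31.8%), against 21.6% and 36.3% of all promoters in the table and 26.9% and 50.8% of the promoters of tested genes. Of the 6, P4HA1, PLOD2 and LOX fell, CCDC80 and GPC6 rose, and COL12A1 did not pass. LOX held the most copies of ACGTG, 4, and its fall was small (log2 fold change -0.13). Among matrix genes with a promoter sequence, GCGTG was found in 6 of 15 that rose (40.0%) and in 3 of 16 that fell (18.8%).

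Lysyl oxidases start the covalent crosslinking of collagen and elastin outside the cell. LOXL4 stood at 22.6, 25.2 and 22.6 CPM in knockdown libraries 1 to 3 and 34.9, 33.5 and 34.8 CPM in controls 1 to 3. It was lower in every knockdown library (log2 fold change -0.53, SE 0.059, adjusted p = 1.38e-09). LOX had 40.2 ± 1.14 CPM after knockdown and 44.1 ± 1.88 CPM in controls (SD, n = 3 each), a small fall (log2 fold change -0.13, adjusted p = 0.0282) that did not pass without knockdown replicate 3 (adjusted p = 0.118), control replicate 1 (0.0737) or control replicate 3 (0.135), nor without the mean-variance trend (0.0583). The 95% intervals of LOXL2 (-0.21 to 0.094) and LOXL3 (-0.43 to 0.050) spanned 0, and neither passed.

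Linkers of basement membranes fell in 3 of 4 members (75.0%), where 26.5% of all tested genes fell. NID1, nidogen 1, which ties laminin to type IV collagen, stood at 323, 326 and 313 CPM in knockdown libraries 1 to 3 and 489, 491 and 517 CPM in controls 1 to 3. Every knockdown library lay below every control, and the mean was 0.643 times theirs (log2 fold change -0.63, SE 0.028, adjusted p = 4.36e-20). HSPG2, the heparan sulfate proteoglycan perlecan, stood at 95.9, 110.2 and 84.0 CPM in knockdown libraries 1 to 3 and 143, 134 and 139 CPM in controls 1 to 3. It was lower in every knockdown library, though these spread widely, at 0.697 times the control mean (log2 fold change -0.53, SE 0.052, adjusted p = 8.98e-11). AGRN, agrin, fell to 0.818 times, with 228 ± 2.45 CPM after knockdown and 279 ± 8.91 CPM in controls (SD, n = 3 each). NID2, nidogen 2, did not pass, with an interval of -0.22 to 0.10. Per kilobase, NID1 was at 54.7 CPM after knockdown and 85.1 CPM in controls, far above NID2 at 2.98 CPM after knockdown and 3.13 CPM in controls.

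Laminins are trimers of an alpha, a beta and a gamma chain. LAMB1 stood at 331, 338 and 305 CPM in knockdown libraries 1 to 3 and 388, 395 and 392 CPM in controls 1 to 3. All knockdown values were lower, at 0.829 times the control mean (log2 fold change -0.27, SE 0.031, adjusted p = 2.53e-09). LAMA5, the main alpha chain here, fell to 0.853 times, with 204 ± 3.47 CPM after knockdown and 239.7 ± 6.70 CPM in controls (SD, n = 3 each). LAMA4, an alpha chain better known from vessels and muscle, stood at 5.81, 4.11 and 4.84 CPM in knockdown libraries 1 to 3 and 10.1, 9.96 and 10.9 CPM in controls 1 to 3, a fall to 0.477 times (log2 fold change -0.94, SE 0.10, adjusted p = 1.44e-09), and the lowest control was well above the highest knockdown value.

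The shared gamma chain LAMC1 stood at 374, 404 and 385 CPM in knockdown libraries 1 to 3 and 364, 375 and 369 CPM in controls 1 to 3. The groups overlapped, and the small rise (log2 fold change 0.070, adjusted p = 0.0413) did not pass without the mean-variance trend or when any of 4 libraries was left out. Those adjusted p-values were 0.219 without the trend, 0.285 and 0.0539 without knockdown replicates 2 and 3, and 0.149 and 0.0942 without control replicates 1 and 3. LAMA3 had 3.77 ± 0.879 CPM after knockdown and 2.49 ± 0.0884 CPM in controls (SD, n = 3 each), and its rise did not pass without knockdown replicate 1 (adjusted p = 0.06) or 2 (0.0526). LAMB2 did not pass, with 148 ± 5.12 CPM after knockdown and 149 ± 7.97 CPM in controls. By CPM per kilobase, LAMC1 made up 32.5% of the laminin messages after knockdown and 28.5% in controls, and LAMB1 37.5% after knockdown and 41.7% in controls.

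SDC4, a syndecan that works with integrins at focal adhesions, had the strongest fall of the matrix genes. It stood at 51.2, 54.6 and 48.1 CPM in knockdown libraries 1 to 3 and 174, 169 and 172 CPM in controls 1 to 3. The groups were far apart, and the knockdown mean was 0.299 times the control (log2 fold change -1.72, SE 0.040, adjusted p = 1.46e-28). SDC2, a further syndecan of liver cells, stood at 247, 238 and 234 CPM in knockdown libraries 1 to 3 and 288, 287 and 293 CPM in controls 1 to 3, a fall to 0.829 times (log2 fold change -0.27, SE 0.029, adjusted p = 7.86e-10), with no overlap. SDC1, the typical syndecan of epithelia, and SDC3 did not pass. SDC1 had 183 ± 3.26 CPM after knockdown and 192 ± 6.50 CPM in controls (SD, n = 3 each) and passed, of the alternatives run, without control replicate 2 alone (adjusted p = 0.0485), while SDC3 had 11.6 ± 0.689 CPM after knockdown and 10.2 ± 0.902 CPM in controls. By CPM per kilobase, SDC4 made up 13.4 ± 0.708% of syndecan messages after knockdown and 31.7 ± 0.0994% in controls. SDC2 made up 43.6% after knockdown and 37.2% in controls.

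The 3′ UTR of SDC4 holds the 6-base word GCACCT 4 times. An earlier scan of 3′ UTR words in these same data had singled out words around it among genes that fell, so its presence here is no independent evidence. The sites are shown because SDC4 is the extreme case, each with 12 bases on either side and the word in capitals, in the transcript's sense (GENCODE 29, GRCh38, minus strand).
SDC4 site 1, chr20:45326788-45326817: ctagaaccacctGCACCTtgagatgtttct
SDC4 site 2, chr20:45326482-45326511: cacatttccacaGCACCTgctaagtttgta
SDC4 site 3, chr20:45325356-45325385: gtgttggagtgaGCACCTcctctgtaggca
SDC4 site 4, chr20:45325341-45325370: cctcctctgtagGCACCTctcacactgttg
Sites 3 and 4 lie close together, so their windows overlap. Of 11537 tested genes with a 3′ UTR, 28.6% held the word and 1.10% held it at least 4 times. The sequence of the siRNA is not given in the sources used here, and whether pairing of an siRNA with such sites has a part in the fall of SDC4 was not tested.

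Over all tested genes, those with the word had a median log2 fold change of -0.035 and fell in 34.5%, and those without it had a median of 0.014 and fell in 24.2%. Since the earlier scan drew on falls in these same data, this difference is no independent evidence either. Genes with the word also have longer 3′ UTRs, with a median of 2460.5 bases against 779 without it. Among the matrix genes 17 of 56 held it (30.4%), of which 7 fell and 6 rose. Of the 39 without it, 12 fell and 16 rose. After SDC4, HSPG2 held most copies, 3, and it fell, while COL9A2 with 2 copies rose. COL1A1 and BGN fell with a single copy each, VCAN and COL4A6 rose with a single copy each, and the falls of NID1, PLOD2, P4HA1, LAMA4 and LOXL4 came without it.

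**Figure D4:**
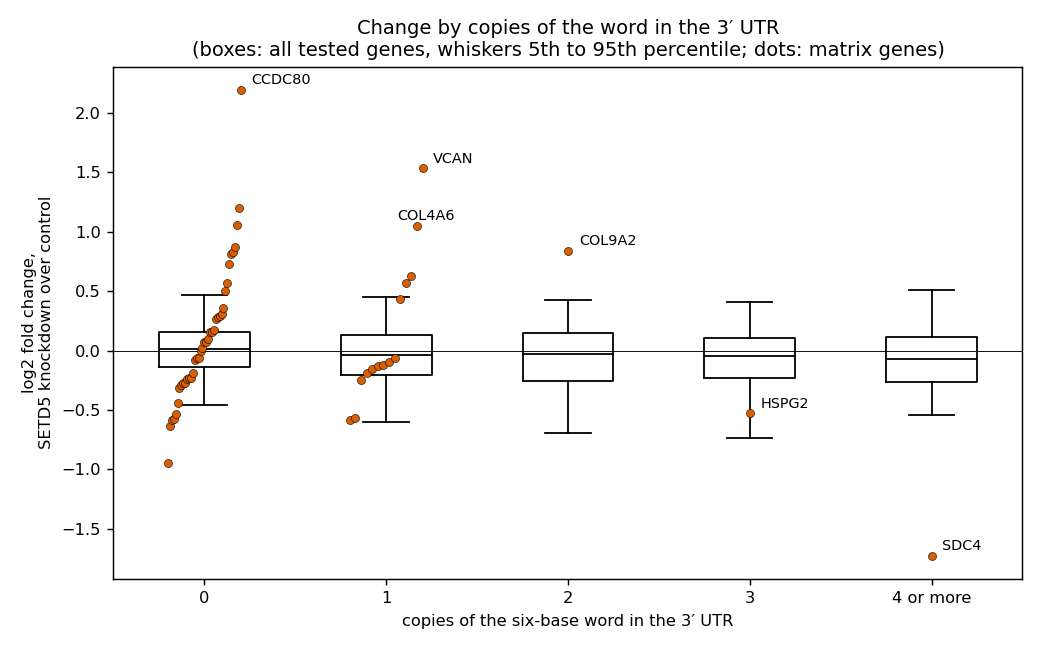
Log2 fold change, SETD5 knockdown over control, by the number of copies of the 6-base word in the 3′ UTR; boxes show quartiles of all tested genes with whiskers at the 5th and 95th percentiles, and dots are the 56 matrix genes. The box medians differ by little, and SDC4 with 4 copies lies far below its box.

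Glypicans, which are held to the membrane by a lipid anchor, rose in 4 of 6 members (66.7%) and fell in none. Among all tested genes 25.7% rose and 26.5% fell. GPC3, the liver cancer marker, stood at 1697, 1723 and 1740.3 CPM in knockdown libraries 1 to 3 and 1329, 1343 and 1354 CPM in controls 1 to 3. The groups did not overlap, at 1.28 times the control mean (log2 fold change 0.36, SE 0.024, adjusted p = 7.79e-15). GPC4, its neighbour on the X chromosome, stood at 8.38, 7.98 and 8.43 CPM in knockdown libraries 1 to 3 and 4.92, 5.78 and 5.07 CPM in controls 1 to 3, a rise to 1.57 times (log2 fold change 0.57, SE 0.10, adjusted p = 1.14e-05). GPC2, known from developing neurons, stood at 5.75, 5.65 and 6.76 CPM in knockdown libraries 1 to 3 and 3.28, 3.06 and 2.72 CPM in controls 1 to 3. It rose to 2.00 times the control (log2 fold change 0.81, SE 0.12, adjusted p = 2.69e-07), again without overlap. GPC6 rose to 1.22 times, with 57.0 ± 1.31 CPM after knockdown and 46.7 ± 1.06 CPM in controls (SD, n = 3 each), and its neighbour GPC5 on chromosome 13 did not pass, with an interval of -0.14 to 0.35. GPC1 did not pass either (-0.41 to 0.18). By CPM per kilobase, GPC3 made up 97.9% of glypican messages in both groups.

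CCDC80, a secreted protein that binds matrix components, had the strongest rise of the matrix genes. Its levels were 103, 108 and 105 CPM in knockdown libraries 1 to 3 and 23.2, 21.5 and 22.0 CPM in controls 1 to 3. The lowest knockdown value was over 4 times the highest control, and the mean was 4.73 times the control (log2 fold change 2.19, SE 0.047, adjusted p = 1.81e-29). VCAN, versican, a large proteoglycan that carries chondroitin sulfate and binds hyaluronan, stood at 193, 197 and 180.0 CPM in knockdown libraries 1 to 3 and 61.5, 67.1 and 65.9 CPM in controls 1 to 3. It rose to 2.93 times the control (log2 fold change 1.54, SE 0.039, adjusted p = 1.28e-27), with the groups far apart. BGN, biglycan, a small leucine-rich proteoglycan, went down, at 8.0, 7.43 and 6.52 CPM in knockdown libraries 1 to 3 and 11.5, 11.3 and 11.5 CPM in controls 1 to 3 (log2 fold change -0.59, SE 0.092, adjusted p = 1.56e-06). SPARC, a collagen-binding matricellular protein, rose to 1.23 times, with 49.9 ± 3.91 CPM after knockdown and 40.5 ± 0.758 CPM in controls (SD, n = 3 each).

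Fibrillins form the microfibrils on which elastin is laid down. FBN1 stood at 22.8, 29.9 and 22.3 CPM in knockdown libraries 1 to 3 and 14.2, 16.4 and 16.4 CPM in controls 1 to 3. The groups did not overlap (log2 fold change 0.63, SE 0.082, adjusted p = 4.61e-08). FBN3 stood at 17.0, 16.4 and 16.7 CPM in knockdown libraries 1 to 3 and 12.4, 10.0 and 12.2 CPM in controls 1 to 3, also higher in every knockdown library (log2 fold change 0.50, SE 0.082, adjusted p = 2.73e-06). FN1, fibronectin, the most abundant matrix message in CPM, stood at 4493, 4777 and 4321 CPM in knockdown libraries 1 to 3 and 5165, 5272 and 5516 CPM in controls 1 to 3. It was lower in every knockdown library, at 0.852 times the control mean (log2 fold change -0.23, SE 0.030, adjusted p = 4.14e-08). Per kilobase of the transcripts used, FN1 was at 574 CPM after knockdown and 673 CPM in controls, and GPC3 was at 669.8 CPM after knockdown and 523 CPM in controls. On that scale GPC3 stood above FN1 after knockdown and FN1 above GPC3 in controls. The order depends on which transcript length is taken.

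Genes that act with the matrix genes were read from lists chosen with earlier results of these data known. Of 17 tested cell surface receptors of the matrix, 13 fell (76.5%) and none rose (limma, adjusted p under 0.05), where 26.5% of all tested genes fell and 25.7% rose. Their median log2 fold change was -0.29. ITGA5, the fibronectin receptor subunit, fell to 0.586 times (67.3 ± 0.797 CPM after knockdown and 115 ± 3.79 CPM in controls, SD, n = 3 each), and the collagen receptor subunit ITGA2 to 0.536 times (14.3 ± 1.08 CPM after knockdown and 26.7 ± 2.62 CPM in controls). The laminin receptor subunit ITGA6 fell to 0.798 times, the collagen receptor kinase DDR1 to 0.729 times, and the common beta subunit ITGB1 to 0.814 times, with 508 ± 17.1 CPM after knockdown and 624 ± 13.3 CPM in controls. The vitronectin receptor subunit ITGAV fell to 0.855 times.

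Genes for folding and processing of collagen were lower in 11 of 18 tested members (61.1%, against 26.5% of all tested genes) and higher in 2 (11.1%, against 25.7%), with a median log2 fold change of -0.13. COLGALT1, which puts galactose on hydroxylysine, fell to 0.695 times, the prolyl isomerase FKBP14 to 0.728 times, and P4HB, the beta subunit of prolyl 4-hydroxylase, to 0.817 times (1067 ± 6.54 CPM after knockdown and 1307 ± 35.4 CPM in controls, SD, n = 3 each). SERPINH1, the collagen chaperone HSP47, rose to 1.24 times, with 247 ± 6.20 CPM after knockdown and 199 ± 4.38 CPM in controls. Without knockdown replicate 2, the rises numbered 1. The isomerase PPIB did not pass, with 413 ± 9.45 CPM after knockdown and 430.0 ± 0.923 CPM in controls.

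Of 15 enzymes of heparan sulfate, 5 rose and 4 fell (33.3% and 26.7%), shares near those of all tested genes (25.7% and 26.5%). HS3ST5, a 3-O-sulfotransferase, rose to 2.97 times (10.7 ± 0.735 CPM after knockdown and 3.60 ± 0.682 CPM in controls, SD, n = 3 each), the polymerase subunit EXT2 fell to 0.657 times and the epimerase GLCE to 0.707 times, and HS6ST1 rose to 1.31 times. Of 15 chondroitin and dermatan sulfate genes, 4 rose and 6 fell (26.7% and 40.0%). DSE, the epimerase that turns chondroitin into dermatan sulfate, rose to 3.27 times, with 34.9 ± 1.72 CPM after knockdown and 10.7 ± 0.794 CPM in controls, and CHSY1, a chondroitin synthase, to 1.46 times. The chondroitin polymerizing factor CHPF fell to 0.579 times and the sulfotransferase CHST13 to 0.627 times. Of 6 enzymes that build the linker of all these chains, XYLT2, which starts it, and B4GALT7 fell to 0.707 and 0.768 times, and the other 4 did not pass.

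**Figure D5:**
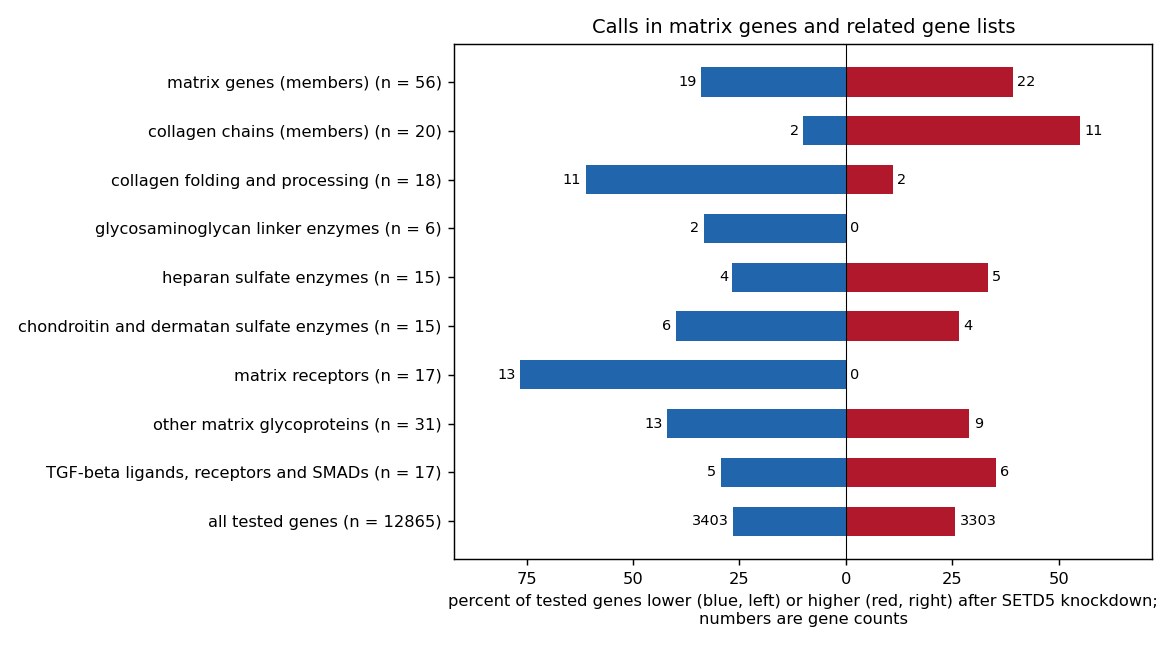
Share of tested genes that were lower (left) or higher (right) after SETD5 knockdown at an adjusted p under 0.05, for the matrix genes, their collagen chains, 7 related lists and all tested genes; numbers beside bars are gene counts. Matrix receptors had 13 lower and 0 higher members, and collagen chains 2 lower and 11 higher.

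The liver identity of the cells was read from marker lists, to be set against the 25.7% of all tested genes that rose and 26.5% that fell. Of 12 hepatocyte markers, all were tested, and 2 rose and 9 fell (16.7% and 75.0%). Their summed level was 41918 to 42203 CPM after knockdown and 45156 to 46172 CPM in controls, led by AFP and ALB. The apolipoprotein genes APOC3 and APOB fell to 0.416 and 0.682 times, the asialoglycoprotein receptor subunit ASGR1 to 0.592 times and transthyretin, TTR, to 0.619 times, while AFP stood at 0.950 times and ALB at 1.07 times. Stellate cell and fibroblast markers, a list of 8 tested genes with COL1A1, COL1A2 and COL3A1 among them, held 4 that rose and 2 that fell. Their summed level was 1215 to 1332 CPM after knockdown and 534 to 557 CPM in controls, and most of it was reelin, RELN (914 ± 61.3 CPM after knockdown and 339 ± 11.5 CPM in controls, SD, n = 3 each) and COL1A2. PDGFRB, the receptor that marks stellate cells, fell to 0.722 times, with 18.2 ± 0.720 CPM after knockdown and 25.2 ± 2.43 CPM in controls, and LUM rose to 1.20 times. DCN, ACTA2, LRAT, DES, THY1 and HAND2, also on that list, had no values among the 14200 genes read here and were not analysed. Of 12 immune markers 4 were tested, and 1 rose and 1 fell (25.0% each, near the shares of all tested genes). CD14 was the 1 that fell, to 0.485 times, with 1.76 ± 0.264 CPM after knockdown and 3.62 ± 0.169 CPM in controls. The list summed to 629.6 to 707.5 CPM after knockdown and 262 to 287 CPM in controls, nearly all of it the lysozyme gene LYZ (649 ± 41.1 CPM after knockdown and 260.5 ± 13.1 CPM in controls). Of 12 endothelial markers 2 were in the table and none reached the level tested, with sums of 0.614 to 0.938 CPM after knockdown and 0.786 to 1.35 CPM in controls. Of 5 tested biliary and epithelial markers 4 rose and 1 fell, with sums of 313 to 322 CPM after knockdown and 266 to 288 CPM in controls. KRT19, a keratin, was the 1 that fell, to 0.849 times, with 96.9 ± 2.65 CPM after knockdown and 114 ± 10.5 CPM in controls. SOX9, the other abundant gene of the list, rose to 1.31 times. The part of any such shift in the changes of matrix genes was not tested.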

How the data were processed

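The values were deposited by the authors as log2 of normalized CPM, for 14200 genes in 6 libraries. The submitters' processing notes name STAR 2.5.1, R 3.3.0 and the genome builds hg19 and mm10 without their roles, and how reads were counted, with which use of strand, and whether genes were filtered is not given in the sources used here. Turned back to a linear scale and with 1 taken off, 100% of values up to 1000 reads were whole multiples of a library's own step, within 0.1 read, so the values are log2(CPM + 1) of whole reads. A count of 3 reads equals 0.176 to 0.214 CPM.

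Tests covered the 12865 genes whose mean reached 1 CPM, with limma 3.58.1 in R 4.3.3 (mean-variance trend, group as the only term, two-sided), and p-values were adjusted by Benjamini-Hochberg over all of them, with a threshold of 0.05. The test was tried on simulated data before use. Far fewer genes changed in that simulation than were called here, so it does not show how the test performs on these data. edgeR was not used. For the recovered reads, limma's voom was run in its place, and this and median-of-ratios scaling were added after seeing the data. Other alternatives were pseudocounts, filters, centring, no trend, a replicate block and leaving out each library.

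Some genes of the lists are not reported here. The matrix genes and all lists were chosen with earlier results of these data known. Values in every library are given for called genes past 0.5 on the log2 scale in either direction, if at 5 CPM or more in the higher group, and for the 8 highest genes. From related and marker lists, the text names genes among the 4 called members with the largest change (mean of 5 CPM or more) and the 2 next by level. Lengths and 3′ UTRs come from a GENCODE 29 transcript per gene, promoters from RefSeq, present for 44 of 56 matrix genes. Libraries of a group differed by more than sampling noise (chi-square per gene 1.25 to 2.07, and 18.9 to 23.2 between groups), so each was counted.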

Additional observations from a re-analysis of the deposited data

How the results depend on the processing

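Over the 14 alternatives, 22 rises of matrix genes became 17 to 23 and 19 falls became 17 to 21, where the lowest count of rises came with a limit of 5 CPM, which leaves 46 matrix genes. Of the 41 called matrix genes, 37 were called in the same direction under every alternative in which they were tested. The other 4 were LAMC1, LAMA3, LOX and P4HA2, given with the results. The size of the adjusted p-values depended strongly on the fit. For SDC4 the main limma fit gave 1.46e-28, and the largest value over the alternatives was 1.89e-05. For CCDC80 these were 1.81e-29 and 9.47e-06. Correlations of the deviations of same-numbered libraries were -0.016, 0.089 and 0.065, and those of differently numbered ones ran from -0.099 to 0.042. All were weak, and with 3 libraries per group they cannot decide whether the numbers pair the libraries. With the number as a replicate block, 23 matrix genes were higher and 19 lower, 3399 and 3499 of all tested genes, and the log2 fold change of SETD5 stayed -0.59. Signs turned only for genes that did not pass. LAMB2 was 0.0081 with median centring, 0.0050 with voom and -0.039 to 0.037 when single libraries were left out, COL11A1 was -0.012 to 0.051 and LOXL2 -0.12 to 0.023. The cause was not tested. Leaving out single libraries gave 2926 to 3150 higher and 3055 to 3229 lower genes. The edgeR alternatives were not run. Depth limits genes such as COL28A1, COL9A3 and COL19A1, with as few as 19, 22 and 35 reads in a library, whose intervals are wide.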

Other observations

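Further matrix glycoproteins were mixed, with 9 of 31 tested members higher and 13 lower after knockdown (41.9% lower, against 26.5% lower and 25.7% higher of all tested genes). ECM2 fell to 0.425 times the control, with 4.24 ± 0.487 CPM after knockdown and 9.98 ± 0.239 CPM in controls (SD, n = 3 each), the matricellular protein CTGF to 0.587 times, the cartilage protein MATN3 to 0.599 times and the plasma adhesion protein VTN, vitronectin, to 0.682 times, with 552 ± 4.75 CPM after knockdown and 809.9 ± 39.5 CPM in controls. TGFBI, a collagen-binding protein induced by TGF-beta, fell to 0.789 times. SPP1, osteopontin, rose to 2.16 times, with 16.4 ± 0.199 CPM after knockdown and 7.60 ± 0.464 CPM in controls.

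Genes of TGF-beta signalling, a main inducer of matrix genes, numbered 17 tested, of which 6 were higher and 5 lower by limma at an adjusted p under 0.05 (35.3% and 29.4%, near the 25.7% and 26.5% of all tested genes). The signal transducer SMAD2 fell to 0.688 times. The ligand TGFB2 rose to 1.43 times and the corepressor TGIF1 to 1.31 times. The receptor TGFBR2 fell to 0.916 times, with 211 ± 2.42 CPM after knockdown and 231 ± 5.97 CPM in controls (SD, n = 3 each), and SMAD4 rose to 1.10 times, with 132 ± 1.57 CPM after knockdown and 120.2 ± 3.02 CPM in controls.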
